A study of Mus musculus with 45 samples.

Results

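Air control mice (Ctrl), which never breathed ethanol, were compared here at 8 h and at 0 h after their last inhalation session. The arrays were chosen by the condition and time in their titles, and they make up 11 of the 45 arrays of the series, 6 at 0 h and 5 at 8 h. Each array holds the nucleus accumbens (NAC) of 1 adult male C57BL/6J mouse, hybridized to an Affymetrix mouse array with 45037 probesets in the processed table. The series as a whole asks how chronic intermittent ethanol (CIE) vapor alters gene expression during withdrawal, and the Ctrl groups are its baseline. All Ctrl mice spent 16 h a day in air chambers for 4 days, had 7 days outside, and went through 4 such cycles. Before each cycle they were injected with saline and with pyrazole (1 mmol/kg), which blocks the enzyme that oxidizes ethanol, so no group here is untreated. The 8 h step therefore joins the hours since leaving the chamber, the time of day, and the hours since the last pyrazole injection, and these cannot be told apart. Animals were kept on a light/dark cycle, but no source used here states the clock time of killing. The other 2 Ctrl groups, 72 h and 7 d with 6 arrays each, were taken at whole multiples of 24 h after the 0 h group and are called late Ctrl below. CIE mice at 0 h (6 arrays) and 8 h (5 arrays) breathed ethanol vapor on the same schedule, and were given ethanol with the pyrazole before each cycle.

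The nucleus accumbens is the ventral part of the striatum, and most of its neurons are GABAergic medium spiny neurons driven by dopamine and glutamate. Some transcript groups in brain are known to move within hours and frame the comparison. Circadian clock genes run in a feedback loop. In it CLOCK and BMAL1 (the product of Arntl) bind E-boxes and switch on the Per, Cry, Nr1d1, Dbp and Ciart genes. The products of the Per, Cry, Nr1d1 and Ciart genes then hold the loop back. Heat shock genes are switched on by heat shock factors and encode chaperones that refold proteins, and they and the cold-inducible RNA-binding protein gene Cirbp follow body temperature in opposite directions. Immediate early genes such as Fos, Junb and Arc are switched on within minutes of neuronal activity, with no need for new protein synthesis. In whole tissue, fewer cells of a type and less RNA per cell cannot be told apart.

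The promoters shown here belong to genes described below, none of them called, and were printed only where they held the motif searched. Each is the 250 bases before the transcription start in RefSeq (GRCm38.p6), 5′ to 3′ on the gene's own strand. Capitals mark heat shock elements, searched as GAANNTTC on both strands, in Hspb1 (chr5:135887669-135887918, plus strand), Dnaja1 (chr4:40722218-40722467, plus strand) and Hspa1b (chr17:34959239-34959488, minus strand), and the E-box CACGTG in Ciart (chr3:95882229-95882478, minus strand) and Per1 (chr11:69098699-69098948, plus strand).
Hspb1: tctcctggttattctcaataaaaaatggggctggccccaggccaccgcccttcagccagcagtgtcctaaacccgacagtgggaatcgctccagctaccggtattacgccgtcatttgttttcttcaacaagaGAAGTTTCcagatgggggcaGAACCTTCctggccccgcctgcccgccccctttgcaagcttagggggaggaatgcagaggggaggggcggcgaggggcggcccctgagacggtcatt
Dnaja1: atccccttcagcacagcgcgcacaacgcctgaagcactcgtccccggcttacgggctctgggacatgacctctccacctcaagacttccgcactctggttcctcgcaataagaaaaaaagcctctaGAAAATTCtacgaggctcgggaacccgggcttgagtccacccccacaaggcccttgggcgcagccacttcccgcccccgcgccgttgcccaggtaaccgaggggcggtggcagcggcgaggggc
Hspa1b: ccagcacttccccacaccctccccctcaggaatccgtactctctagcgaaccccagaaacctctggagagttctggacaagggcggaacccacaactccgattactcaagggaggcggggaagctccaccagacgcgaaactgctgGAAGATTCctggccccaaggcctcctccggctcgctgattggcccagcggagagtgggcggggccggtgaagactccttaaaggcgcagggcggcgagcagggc
Ciart: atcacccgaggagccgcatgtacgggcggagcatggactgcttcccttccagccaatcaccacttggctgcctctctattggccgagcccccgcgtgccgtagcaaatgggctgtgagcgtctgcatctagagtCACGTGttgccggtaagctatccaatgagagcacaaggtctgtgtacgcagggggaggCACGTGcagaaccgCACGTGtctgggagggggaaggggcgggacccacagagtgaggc
Per1: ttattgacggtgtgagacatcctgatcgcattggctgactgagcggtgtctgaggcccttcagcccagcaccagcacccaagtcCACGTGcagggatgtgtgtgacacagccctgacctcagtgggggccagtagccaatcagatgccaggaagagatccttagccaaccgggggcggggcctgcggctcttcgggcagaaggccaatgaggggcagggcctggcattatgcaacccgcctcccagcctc
The Hspb1 stretch held 2 heat shock elements, which ended 109 and 89 bases before the start. Ciart held 3 E-boxes, ending 110, 52 and 38 bases before its start, and the stretch printed for Per1 held 1. Of 19 measured cold-inducible and heat shock genes, 17 had a window of 300 bases (250 before and 50 after the start) in RefSeq, and 10 of the 17 (58.8%) held GAANNTTC, against 9.04% of 27025 genes with such windows. CACGTG was found in the windows of 5 of 19 clock genes (26.3%), Bhlhe41, Ciart, Cry1, Per1 and Tef, against 8.09% of all genes. The cyclic AMP response element TGACGTCA stood in the windows of 2 of 18 immediate early genes, Btg2 and Maff, and in 2.03% of all genes. A match describes the letters of the window and shows no binding.

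Between 8 h and 0 h no probeset was called in the air controls. With limma and an adjusted p of 0.01 or less as the threshold, 0 of 45037 probesets were higher and 0 were lower (0% called). At an unadjusted p under 0.05 there were 2264 probesets (5.03%), 1403 of them higher (3.12%) and 861 lower (1.91%) at 8 h. A single probeset (0.00222%) had an adjusted p under 0.05. Every 0 h array read between 11.79 and 12.07 on it, with a median of 11.88, and the 8 h arrays read 11.49, 11.64, 11.57, 11.44 and 11.62. The groups did not overlap, and the difference was -0.34 (SE 0.056, adjusted p = 0.0183). Its annotation lists several symbols, a gene and a pseudogene, so it is not named.

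The intervals around these differences were narrow for most genes. Over 18193 genes, each at its brightest probeset, the median difference was 0.02 and the 95% interval of a gene reached a median of 0.16 to either side on the log2 scale. For 95.1% of genes the whole interval lay within 0.5 of zero, and for 99.6% within 1. All arrays were alike, with median correlations to the other 10 arrays between 0.991 and 0.996. Genes of medium spiny neurons were high in every array, with the dopamine receptor gene Drd1 between 12.4 and 12.9 and the opioid precursor gene Penk between 13.6 and 13.9. Transcripts of neighbouring tissue varied from array to array at both times. The cortical glutamate transporter gene Slc17a7 read from 5.20 to 8.05 at 0 h and from 5.96 to 8.16 at 8 h, and Ttr, a choroid plexus gene, from 5.02 to 10.5 and from 5.98 to 8.54.

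**Figure D1:**
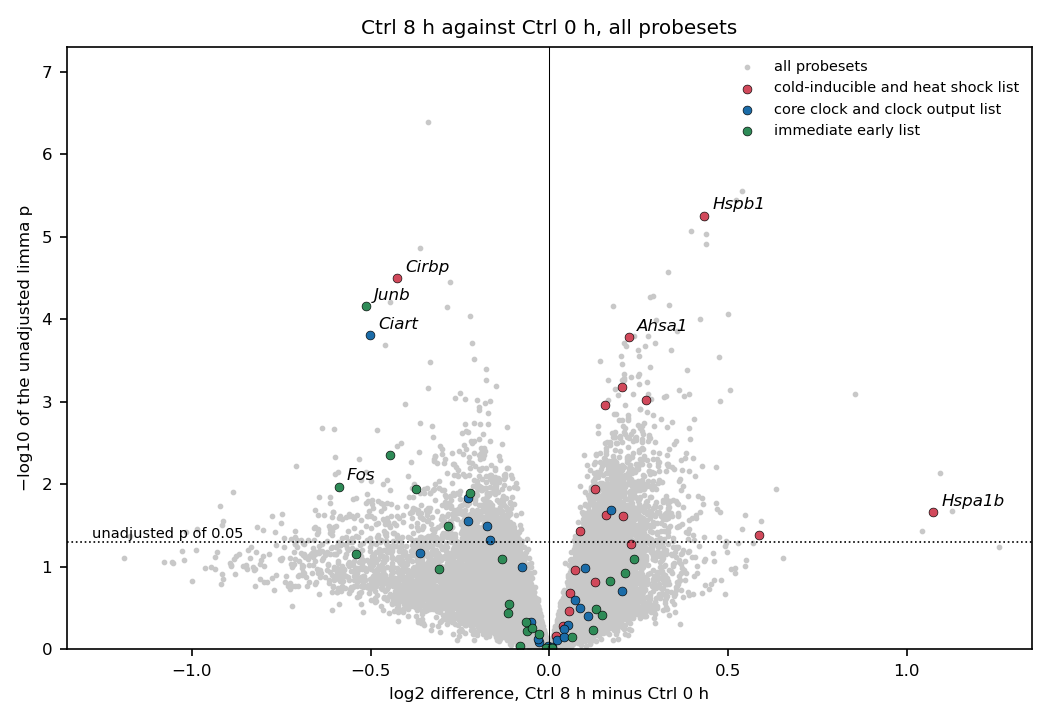
Each grey point is a probeset, with its log2 difference (Ctrl 8 h minus Ctrl 0 h) on the horizontal axis and −log10 of its unadjusted limma p on the vertical axis. Coloured points are the members of 3 gene lists at their brightest probesets, and no point was called at an adjusted p of 0.01.

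The 5 genes lowest in p are described here although they did not pass. They were Hspb1, Ifitm1, Cxcl12, Tubd1 and Sox18, all higher at 8 h, and in each the 5 arrays of 8 h lay above all 6 of 0 h. Over all probesets 194 (0.431%) had groups that did not overlap, 142 with 8 h above (0.315%) and 52 with 8 h below (0.115%). Hspb1 encodes the small heat shock protein HSP27. On its probeset with the smallest p, 0 h arrays ranged from 8.66 to 9.09 with a median of 8.85, and 8 h arrays read 9.37, 9.24, 9.39, 9.34 and 9.58. The difference was 0.54 (SE 0.099, adjusted p = 0.0537), a fold of 1.45. The brightest Hspb1 probeset gave 0.43 (SE 0.083, adjusted p = 0.0537). Within the 4 inferred hybridization sets that hold both times, the Hspb1 difference was positive in all 4, from 0.46 to 0.74.

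Ifitm1 encodes an interferon-induced transmembrane protein. It ranged from 8.01 to 8.79 at 0 h, with a median of 8.39, and read 9.14, 8.82, 8.81, 8.80 and 8.93 at 8 h. The difference was 0.52 (SE 0.097, adjusted p = 0.0537). Among 17 measured interferon-stimulated genes none had an unadjusted p under 0.05, and their median difference was -0.05. Without Ctrl 0 h replicate 20, the highest 0 h array for Ifitm1, its difference was 0.60 and its adjusted p 0.00417, so that it passed.

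Cxcl12, a chemokine gene expressed by vessel cells among others, gave 0.43 (SE 0.084, adjusted p = 0.0537), with 0 h arrays from 9.10 to 9.55 and 8 h arrays from 9.69 to 9.85. Sox18, a transcription factor gene of endothelial cells, gave 0.44 (SE 0.087, adjusted p = 0.060), with 0 h arrays from 7.42 to 7.93 and 8 h arrays from 8.04 to 8.35. The late Ctrl means lay between the 2 times for both genes, at 9.63 and 9.45 for Cxcl12 and at 8.03 and 7.94 for Sox18 (72 h and 7 d). Beside these genes, 18 endothelial and pericyte markers had a median difference of 0.09. Of them 13 of 18 were above zero, as were 10804 of all 18193 genes. The markers Cldn5, a tight junction gene (0.25, SE 0.093), and Slco1c1, a thyroid hormone transporter gene (0.11, SE 0.055), had an unadjusted p under 0.05, 2 of 18 against 3.19% of all genes in that direction. The mean of the endothelial list, centred over the Ctrl arrays, ran from -0.08 to 0.01 at 0 h and from -0.06 to 0.09 at 8 h, and its part in Cxcl12 and Sox18 was not tested. Tubd1, which encodes delta-tubulin, gave 0.40 (SE 0.078, adjusted p = 0.060), with 0 h arrays from 6.70 to 7.00 and 8 h arrays from 7.18 to 7.3.

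Most chaperone genes were higher at 8 h at their brightest probesets and Cirbp was lower, by small amounts and without a call. None of the 19 measured genes of the cold-inducible and heat shock list passed, 18 of the 19 had a difference above zero, and their median was 0.15, against 0.02 over all genes. At an unadjusted p under 0.05 there were 11 higher and 1 lower, or 12 of 19, against 3.19% of all genes higher, 1.24% lower and 4.44% in all. In 6 of the 19 the groups did not overlap, 5 with 8 h above and 1 with 8 h below, against 0.555% of all genes, 0.412% above and 0.143% below. These genes share regulators and were measured on the same arrays, so their counts are not independent. The counts hold for the brightest probesets, and dimmer ones disagreed for some members. Hspa4 gave 0.127 at its brightest probeset and -0.135 at a dimmer one, and Dnajb4 gave 0.038 and -0.144. Dimmer probesets of Hspa1b (1.125) and Hsp90aa1 (0.097) lay above zero, as their brightest did. The heat shock genes named next were chosen after their values were seen.

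Cirbp, the RNA-binding protein gene that rises when cells cool, was the exception. It ranged from 10.31 to 10.70 at 0 h, with a median of 10.66, and read 10.26, 10.15, 10.10, 10.14 and 10.09 at 8 h. All 8 h arrays were below all 0 h arrays. The difference was -0.43 (SE 0.091, 95% interval -0.61 to -0.24, adjusted p = 0.129), and it was negative in all 4 inferred hybridization sets, from -0.54 to -0.05. The list also names Rbm3, which no probeset with a single symbol measured.

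Ahsa1 encodes an activator of the HSP90 ATPase. Its 0 h arrays ranged from 11.07 to 11.32, with a median of 11.25, and its 8 h arrays read 11.47, 11.40, 11.39, 11.44 and 11.53, all above them. The difference was 0.22 (SE 0.053, adjusted p = 0.264). Hspa4l and Hsph1, both of the HSP110 family that exchanges nucleotides on HSP70, gave 0.20 (SE 0.055, adjusted p = 0.503) and 0.16 (SE 0.044, adjusted p = 0.585). Chordc1, an HSP90 cochaperone gene, gave 0.27 (SE 0.076, adjusted p = 0.552). Stip1, which hands proteins from HSP70 to HSP90, gave 0.21 (SE 0.088) and Dnaja1, an HSP40 gene, 0.09 (SE 0.040), with adjusted p = 0.945 in both and no overlap between the groups. Hsp90aa1 itself, already at 13.2 at both times, differed by 0.02 (95% interval -0.07 to 0.11).

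The inducible HSP70 genes had the widest spread. Hspa1b ranged from 7.87 to 10.34 at 0 h, with a median of 8.69, and read 9.17, 9.94, 9.32, 10.997 and 10.76 at 8 h. Its difference of 1.07 (SE 0.450, 95% interval 0.17 to 1.98, adjusted p = 0.945) was the largest of the list and overlapped between the groups. Hspa1a, a near-identical gene whose probes may share signal with Hspa1b, gave 0.59 (SE 0.278). Both were highest in the same 8 h array (replicate 50) and the same 0 h array (replicate 48), and within inferred sets the Hspa1b difference ran from -1.02 to 2.36. Averaged over the 19 genes and centred over all Ctrl arrays, the list level ran from -0.13 to 0.13 at 0 h and from 0.10 to 0.31 at 8 h, so the times overlapped.

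**Figure D2:**
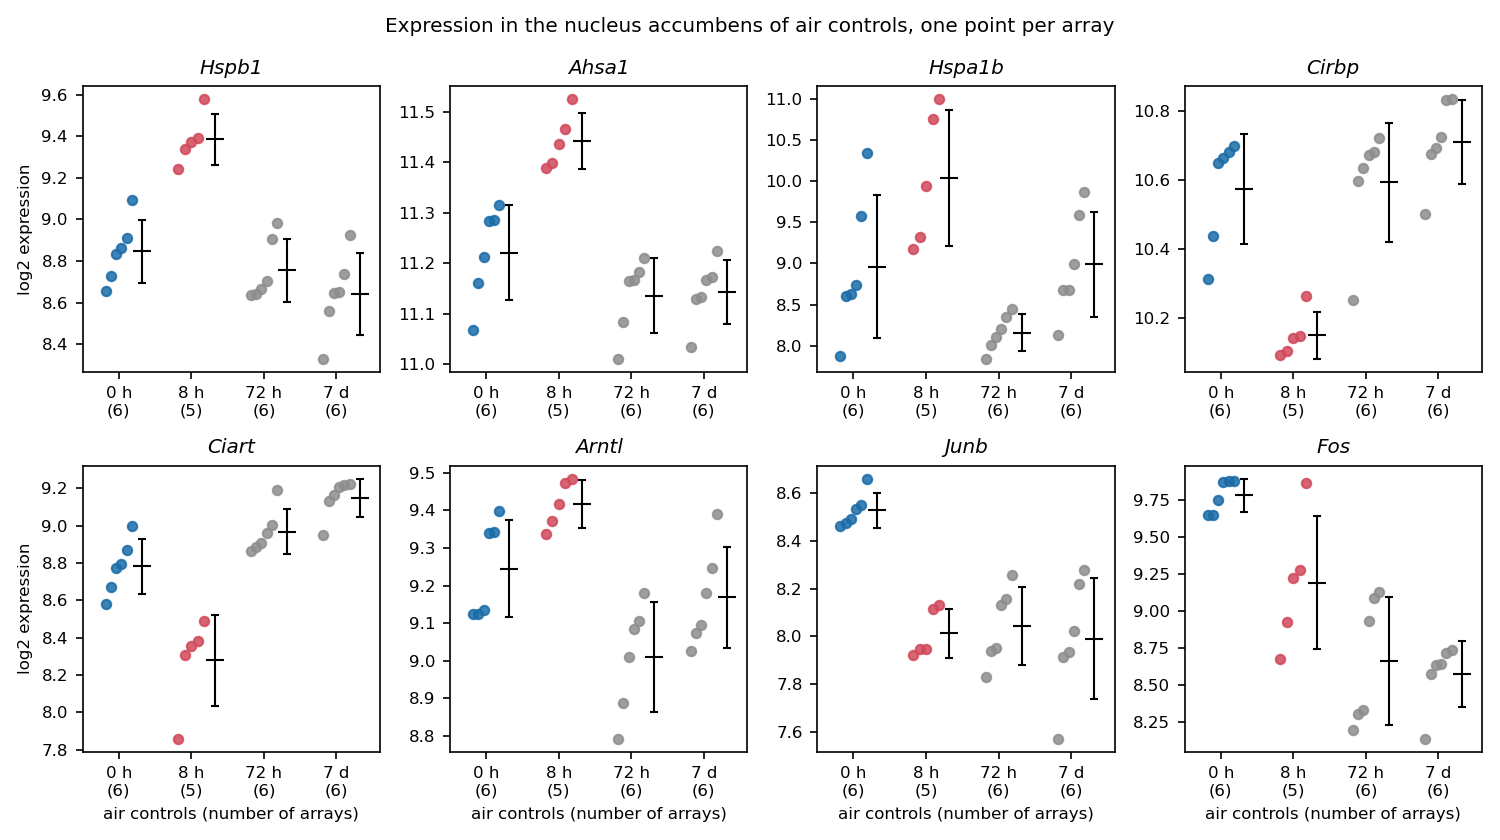
The log2 expression of 8 genes (vertical axes) is plotted for each array of the 4 Ctrl times, with the number of arrays in brackets, and the black mark beside each group is its mean ± SD. By group mean, Hspb1 and Ahsa1 stood highest at 8 h, Cirbp and Ciart lowest at 8 h, and Junb and Fos highest at 0 h.

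Set against late Ctrl, genes of the heat shock list were called at 8 h and not at 0 h. The contrast of 8 h with the average of 72 h and 7 d called 108 probesets (0.24%), 83 higher and 25 lower at 8 h, and that of 0 h with late Ctrl called 49 (0.109%), 35 higher and 14 lower. These contrasts share the 8 h or 0 h arrays with the comparison above, so only each one's values are given. Of the heat shock list, 5 genes rose against late Ctrl at 8 h (0.258% of all genes did) and 1 fell (0.055% did), while 0 of 19 were called at 0 h. The genes were Hspb1 (0.58 at its brightest probeset, SE 0.073, adjusted p = 4.73e-06), Ahsa1 (0.30, adjusted p = 0.000164), Hsph1 (0.25, adjusted p = 0.000164), Hspa4l (0.29, adjusted p = 0.000368) and Chordc1 (0.36, adjusted p = 0.00279). Cirbp fell by 0.50 against late Ctrl (SE 0.080, adjusted p = 0.000228). At 0 h these same genes differed from late Ctrl by 0.08 to 0.15 for the 5 chaperone genes and by -0.08 for Cirbp, with adjusted p values from 0.653 to 1. The list as a whole was also above late Ctrl at 0 h, in 18 of 19 genes, with a median of 0.081 against 0.230 at 8 h. At 0 h 5 of the 19 were higher at an unadjusted p under 0.05, against 2.31% of all genes.

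Single arrays bore on these counts. Leaving out replicate 79 of 8 h gave 54 calls against late Ctrl in place of 108, replicate 4 gave 60, and replicates 8 and 50 gave 66 each. For 0 h against late Ctrl, the count of 49 became 20 without replicate 48 and 27 without replicate 78. With the inferred hybridization sets as a fixed block, 80 and 25 probesets were called. Ctrl 0 h replicate 20, in no set, was a block of its own in that fit and so had no weight in the group differences.

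The clock genes lay on both sides of zero between 8 h and 0 h without a call, and Ciart differed most at their brightest probesets. Of the 22 genes of the core clock and clock output list, 0 were called, the median difference was 0.00, and 11 were above and 11 below zero. At an unadjusted p under 0.05 stood 6 of 22, with 1 higher and 5 lower, against 4.44% of all genes. This count rested on single arrays, with 2 left without Ctrl 8 h replicate 79 and 3 without Ctrl 0 h replicate 74.

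Ciart, a repressor of CLOCK and BMAL1 and the gene with 3 E-boxes above, ranged from 8.58 to 9.0 at 0 h with a median of 8.78. At 8 h it read 8.31, 8.38, 8.49, 8.36 and 7.86, each below every 0 h array. The difference was -0.50 (SE 0.120, 95% interval -0.75 to -0.26, adjusted p = 0.264), and without replicate 79, the lowest 8 h array, it was -0.40. Against late Ctrl, Ciart fell by 0.78 at 8 h (SE 0.106, adjusted p = 1.7e-05), with late means of 8.97 (72 h) and 9.15 (7 d), and at 0 h the value was -0.28 (adjusted p = 0.57).

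Of the 5 clock genes with CACGTG in their windows, Ciart and Per1 lay below zero. Bhlhe41 (0.11), Cry1 (0.09) and Tef (0.04) lay above zero at their brightest probesets. Per1, a repressor of the loop, gave -0.23 (SE 0.089, adjusted p = 0.945), with 0 h arrays from 10.13 to 10.55 and 8 h arrays from 10.01 to 10.30. Nr1d1, which encodes the repressor REV-ERB alpha, also gave -0.23 (SE 0.099, adjusted p = 0.945), with 0 h arrays from 7.46 to 8.11 and 8 h arrays from 7.39 to 7.66. Dbp, a D-box activator gene, gave -0.17 (SE 0.081) at its brightest probeset and -0.29 at another. Bhlhe40, a repressor gene, gave -0.17 (SE 0.078). The groups overlapped in all 4. Arntl, whose product is the partner of CLOCK, went the other way, with 0 h arrays from 9.12 to 9.40 and 8 h arrays from 9.34 to 9.48, a difference of 0.17 (SE 0.072, adjusted p = 0.945). Against late Ctrl, Arntl rose by 0.33 at 8 h (adjusted p = 0.00388), and Ciart and Arntl were the clock genes called there.

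Hlf, a relative of Dbp, had -0.36 with an interval from -0.75 to 0.03, and Tef, the third of that family, had 0.04 at its brightest probeset and -0.66 (unadjusted p = 0.0205) at a dimmer one, so its probesets disagreed. The remaining members had intervals that held zero at their brightest probesets. They were Clock (-0.01), Npas2 (0.01), Per2 (-0.03), Per3 (0.05), Cry1 (0.09), Cry2 (-0.03), Nr1d2 (-0.08), Rora (0.02), Rorb (0.20), Nfil3 (0.04), Bhlhe41 (0.11), Csnk1d (0.10), Csnk1e (0.07) and Usp2 (-0.05). Dimmer probesets gave other values for some, 0.15 for Per3 (95% interval 0.01 to 0.30, unadjusted p = 0.0398), -0.22 for Clock, -0.20 for Npas2 and -0.26 for Per2. Of the 14 at their brightest probesets, Rorb had the widest interval, from -0.11 to 0.52.

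Several immediate early genes read lower at 8 h than at 0 h, with no call between the 2 times. All 25 were measured, the median difference was -0.07, and 6 of 25 had an unadjusted p under 0.05, all lower at 8 h, against 1.24% of all genes in that direction. The 6 were Fos, Junb, Egr4, Nr4a1, Nr4a3 and Btg2. Apart from Fos and Arc, the members of this list were chosen after their values were seen. Junb, a partner of Fos in the AP-1 factor, ranged from 8.46 to 8.66 at 0 h with a median of 8.51, and read 7.95, 7.92, 8.12, 8.13 and 7.95 at 8 h, with no overlap. The difference was -0.51 (SE 0.116, 95% interval -0.75 to -0.28, adjusted p = 0.169), and it was negative in all 4 inferred sets, from -0.71 to -0.38.

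Fos ranged from 9.65 to 9.88 at 0 h with a median of 9.81. The 8 h arrays read 8.92, 9.22, 8.67, 9.28 and 9.86, so that 4 lay below all 0 h arrays and replicate 79 lay among them. The difference was -0.59 (SE 0.220, 95% interval -1.03 to -0.14, adjusted p = 0.945). Arc, which encodes a synaptic scaffold protein, gave -0.31 (SE 0.186, 95% interval -0.68 to 0.07), again with replicate 79 as the highest 8 h array at 9.72, above all 6 arrays of 0 h. Nr4a1, an orphan nuclear receptor gene, gave -0.45 (SE 0.148, adjusted p = 0.944), from 10.97 to 11.59 at 0 h and from 10.67 to 11.24 at 8 h.

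Replicate 79 was also the 8 h array with the highest mean over the 14 cortical pyramidal neuron markers (0.54, against -0.69 to 0.61 over the 0 h arrays) and the lowest over the 20 medium spiny neuron markers (-0.30, against -0.18 to 0.18 at 0 h). Both marker lists had medians near zero in the comparison itself, -0.01 and -0.03. Below zero were 9 of the 14 and 17 of the 20 members, against 7389 of 18193 genes, and 0 members had an unadjusted p under 0.05. The part of these lists in the spread of Fos and Arc was not tested. Against late Ctrl, 8 of the 25 immediate early genes rose at 0 h (0.11% of all genes did). They were Fos (1.16, SE 0.182, adjusted p = 0.000316), Egr2 (1.30, adjusted p = 0.00409), Nr4a1 (0.84, adjusted p = 8.02e-05), Arc (0.81, adjusted p = 0.00624), Nr4a3 (0.80, adjusted p = 1.08e-05), Fosl2 (0.56, adjusted p = 0.00409), Junb (0.51, adjusted p = 0.00469) and Egr1 (0.34, adjusted p = 0.00294). At 8 h Fosl2 alone was called against late Ctrl (0.57, adjusted p = 0.00474), while Junb was level with the late groups and Fos at 0.57 with an adjusted p of 0.259. Fosl2 was therefore level between the 2 times (0.01, 95% interval -0.25 to 0.26). Most of the list was still above late Ctrl at 8 h, in 23 of 25 genes, with a median of 0.225 against 0.328 at 0 h. At 8 h 11 of the 25 were higher at an unadjusted p under 0.05, against 5.79% of all genes.

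**Figure D3:**
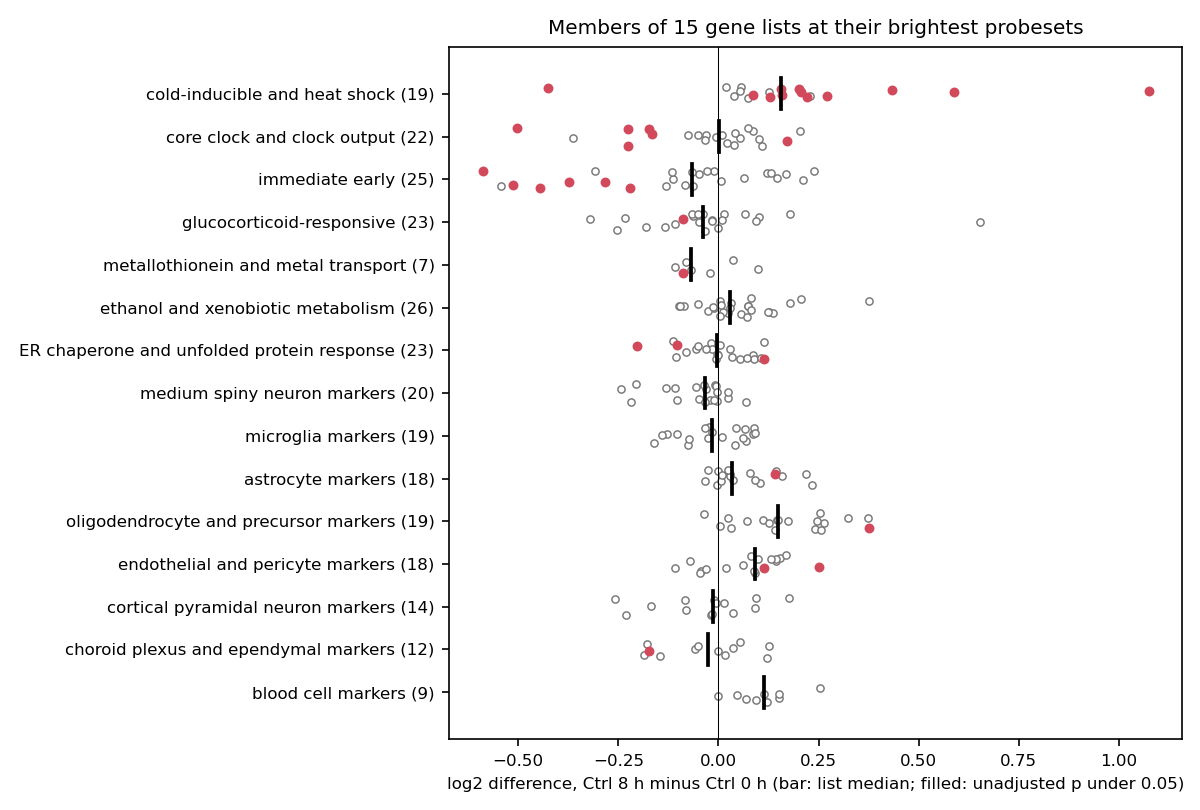
Each circle is a member gene of the list named on the vertical axis (measured members in brackets), at its log2 difference between Ctrl 8 h and Ctrl 0 h. Filled circles had an unadjusted p under 0.05 and bars mark list medians, which lay highest for the heat shock list (0.15) and the oligodendrocyte markers (0.15).

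A few genes of metal binding and detoxification were close at 0 h and 8 h and above late Ctrl at both. Of 7 measured genes of metal binding and transport 2, Mt1 and Mt2, were called above late Ctrl at each time. Of all genes 0.11% were called higher at 0 h and 0.258% at 8 h. The metallothionein genes Mt1 and Mt2 encode small proteins that bind zinc and copper. Mt1 ranged from 13.67 to 13.75 at 0 h with a median of 13.71, and read 13.66, 13.62, 13.56, 13.57 and 13.66 at 8 h, lower in each array but by only -0.09 (SE 0.041, adjusted p = 0.945). Mt2 gave -0.11 (SE 0.054, 95% interval -0.22 to 0.00). Against late Ctrl, Mt1 rose by 0.27 at 0 h (adjusted p = 3.87e-06) and 0.18 at 8 h (adjusted p = 0.00598), and Mt2 by 0.34 (adjusted p = 8.25e-06) and 0.23 (adjusted p = 0.00747).

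Aox1, which encodes an aldehyde oxidase and was chosen after its values were seen, ranged from 9.10 to 9.69 at 0 h with a median of 9.38. It read 9.26, 9.49, 9.18, 9.05 and 9.44 at 8 h, inside or close to that range. The difference was -0.10 (95% interval -0.36 to 0.16), while against late Ctrl it rose by 1.36 at 0 h (SE 0.106, adjusted p = 4.21e-11) and 1.26 at 8 h (SE 0.113, adjusted p = 3.44e-09). The glutathione transferase genes Gstm1 and Mgst1, also chosen after their values were seen, were alike. Gstm1 differed between the times by 0.04 at 1 probeset and by -0.125 at another. Mgst1 differed by 0.02 between the times (95% interval -0.13 to 0.16) and rose against late Ctrl by 0.52 at 0 h (adjusted p = 7.11e-07) and 0.53 at 8 h (adjusted p = 2.41e-06). Of 26 measured genes of ethanol and xenobiotic metabolism, 0 had an unadjusted p under 0.05 between 8 h and 0 h, with a median difference of 0.03. Against late Ctrl, 1 of the 26 was called higher at 0 h (0.11% of all genes were) and 1 at 8 h (0.258% were). The list median at 0 h was -0.03, with 15 of 26 below zero. The largest rises of its members at their brightest probesets were 0.66 at 0 h and 0.63 at 8 h, below the values given for Aox1. The ethanol-oxidizing enzymes gave intervals around zero, with Cat (catalase) at -0.01 (-0.21 to 0.19), and Adh1 and Cyp2e1 low on the array at 5.5 and 5.3 and differing by 0.00 (-0.19 to 0.20) and 0.07 (-0.10 to 0.25).

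Endoplasmic reticulum chaperone genes were also close at the 2 times. Hspa5, the master chaperone gene of that compartment, was at 12.4 at both times, with a 95% interval of the difference from -0.14 to 0.14. Against late Ctrl it rose by 0.29 at 0 h (adjusted p = 0.00994), and at 8 h the value was 0.29 with an adjusted p of 0.0126. Another Hspa5 probeset gave 0.31 at 0 h (adjusted p = 0.0147) and 0.23 at 8 h (adjusted p = 0.128) and was not called. Of the 23 members of the list, 0 were called between 8 h and 0 h, with a median near zero, while 4 rose against late Ctrl at 0 h (0.11% of all genes did) and 3 at 8 h (0.258% did). Manf, which encodes a secreted factor of endoplasmic reticulum stress, had the smallest p of the list between the times, -0.20 (SE 0.057, adjusted p = 0.552).

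Targets of glucocorticoids showed no call and wide intervals. Of 23 measured genes, 0 passed, 1 (Mt1) had an unadjusted p under 0.05, a share close to the 4.44% of all genes, and the median was -0.04. Sgk1, a kinase gene, ranged from 11.9 to 12.6 at 0 h and from 11.6 to 12.1 at 8 h, a difference of -0.32 (SE 0.179, 95% interval -0.68 to 0.04). Fkbp5, which encodes a receptor cochaperone, gave -0.06 (-0.28 to 0.15), and Tsc22d3, the gene of the protein GILZ, had an interval from -0.26 to 0.25.

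Cell type markers overlapped between the times. Between 8 h and 0 h the median was -0.02 over 19 microglia markers, 0.03 over 18 astrocyte markers, 0.15 over 19 oligodendrocyte and precursor markers, -0.03 over 12 choroid plexus and ependymal markers and 0.11 over 9 blood cell markers. Of the oligodendrocyte list, 18 of 19 were above zero and 1, Gpr17 of the precursor stage (0.38, SE 0.140), had an unadjusted p under 0.05. Over all genes 10804 of 18193 were above zero and 3.19% were higher at that p. The level of that list ran from -0.58 to 0.03 over the 0 h arrays and from -0.89 to 0.41 over the 8 h arrays, so single arrays differed more than the groups did.

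The same step was also compared with that of the CIE mice, in separate animals. There 285 probesets were called between 8 h and 0 h (0.633%), 169 higher and 116 lower, and 166 or 177 with the inferred hybridization sets as a fixed or a random block. A test of the difference between the 2 steps called 0 of 45037 probesets (0%), with 2482 (5.51%) at an unadjusted p under 0.05. Of the heat shock list, the difference between the air and CIE steps was above zero in 9 genes and below in 10, with a median of -0.01. Hspb1 gave 0.54 in air and 0.68 in CIE (adjusted p = 5.37e-05), a difference of -0.14 (95% interval -0.42 to 0.14). Cirbp gave -0.43 and -0.52 (adjusted p = 0.000627), a difference of 0.10 (-0.16 to 0.36). Hspa4l gave 0.20 and 0.32 (adjusted p = 0.000597), and Hsph1 0.16 and 0.28 (adjusted p = 0.000191), with differences of -0.12 in both. The widest gaps lay in the inducible HSP70 genes, with Hspa1b at 1.07 in air and -0.20 in CIE, a difference of 1.28 (95% interval -0.01 to 2.56, adjusted p = 0.904), and Hspa1a at 0.59 and -0.39, a difference of 0.98 (0.19 to 1.77, adjusted p = 0.774).

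Clock genes went both ways, with the air step above the CIE step in 12 of 22 and below it in 10. Ciart fell by 1.02 in CIE (SE 0.120, adjusted p = 2.89e-06) against -0.50 in air, and the difference of 0.51 (95% interval 0.17 to 0.86, adjusted p = 0.562) was not called. Dbp fell by 0.44 in CIE (adjusted p = 0.00135) and Nr1d1 by 0.46 (adjusted p = 0.00658), and the differences from air, 0.28 and 0.24, were not called either. The air values were the larger in size for Per1 (-0.23, and -0.12 in CIE), Bhlhe40 (-0.17 and -0.02) and Hlf (-0.36 and -0.26). Of the immediate early genes, 21 of 25 had an air step below the CIE step, with a median difference of -0.22, and none was called. The signs were opposite for some, with Fos at -0.59 in air and 0.51 in CIE, a difference of -1.10 (95% interval -1.73 to -0.47, adjusted p = 0.374). Arc gave -0.31 and 0.72, with a difference of -1.03 (-1.56 to -0.50, adjusted p = 0.20), and Nr4a1 gave -0.45 and 0.47, with -0.92 (-1.34 to -0.50, adjusted p = 0.108). Other members were below zero in both, with Junb at -0.51 in air and -0.05 in CIE and Btg2 at -0.37 and -0.30.

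The smallest p values of that test, named after they were seen and not passing, belonged to Manf and Emcn. Manf gave -0.20 in air and 0.29 in CIE, a difference of -0.50 (95% interval -0.66 to -0.33, adjusted p = 0.0131). Its 0 h air arrays ranged from 10.76 to 11.11 with a median of 10.83, and its 8 h air arrays read 10.56, 10.71, 10.62, 10.65 and 10.77, overlapping in 1 array. Emcn, an endothelial sialomucin gene, gave 0.11 in air and 0.52 in CIE, a difference of -0.41 (-0.55 to -0.27, adjusted p = 0.0238). At an adjusted p of 0.05 or less there were 7 probesets (0.0155%), with Depp1 at -1.07 and Uri1, Rpain and Rab33a at 0.33, 0.33 and 0.36 among them.

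**Figure D4:**
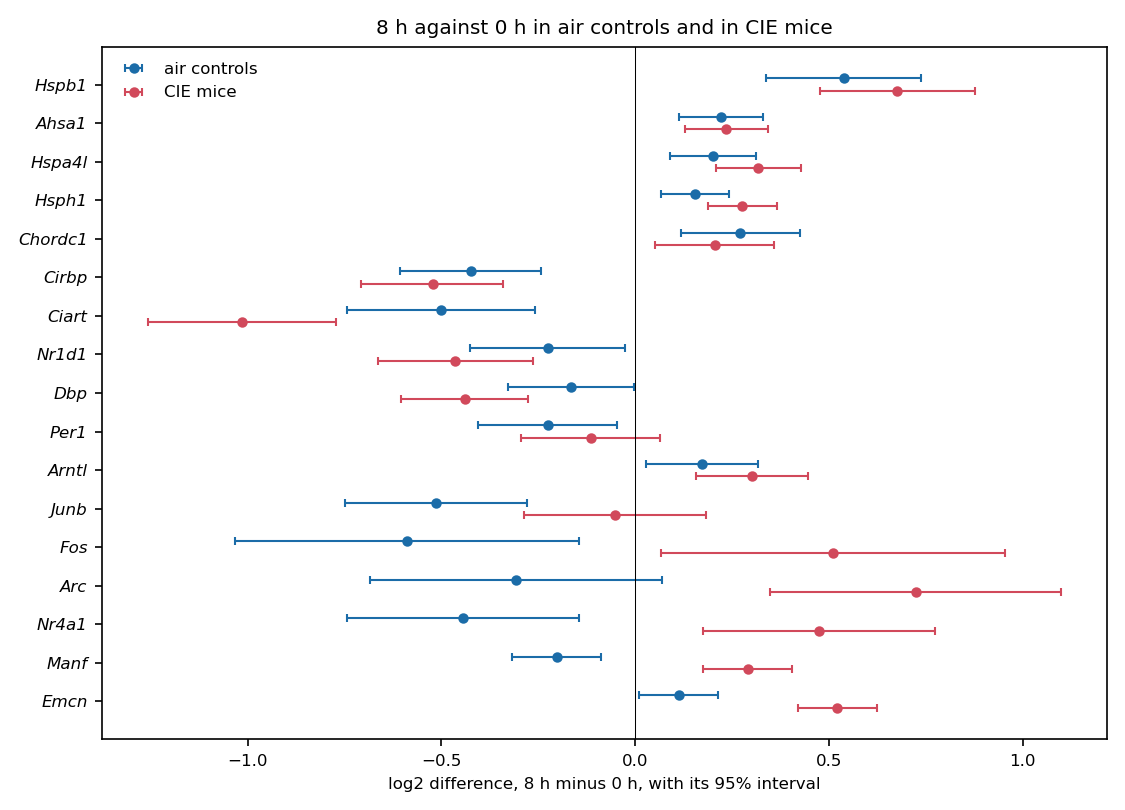
Points are log2 differences between 8 h and 0 h (horizontal axis) with 95% intervals from the limma fit, for 17 genes in air controls (blue) and in CIE mice (red). The 2 intervals lay on the same side of zero for Cirbp and the plotted chaperone genes (Hspb1, Ahsa1, Hspa4l, Hsph1 and Chordc1). They lay on opposite sides for Fos, Nr4a1 and Manf. Hspa1a and Hspa1b were not plotted.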

How the data were processed

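Total RNA of the nucleus accumbens of individual mice was hybridized to Affymetrix mouse genome arrays. The deposited values are log2 expression per probeset, which the authors made with RMA and quantile normalization within each hybridization batch, then quantile normalized over all arrays and adjusted with ComBat for the batch. Such an adjustment can remove or add differences between groups that are uneven over batches, and the labels do not name the batches. The 6 inferred sets, of 6 to 8 arrays each, came from values tied exactly between arrays, and 4 sets held both Ctrl 0 h and Ctrl 8 h. Ctrl 0 h replicate 20 fell in none, so fits with the sets as a fixed block in effect left it out.

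The 45 arrays were fitted as 8 group means with limma 3.58.1 in R 4.3.3, with Benjamini-Hochberg adjustment over all 45037 probesets and a threshold of 0.01, as in the study's methods. Late Ctrl is the average of the 72 h and 7 d means. Errors of differences are limma standard errors, and intervals are unadjusted 95% intervals. The number of arrays limits the precision. Symbols came from GEO's platform annotation. Of the probesets, 34945 had 1 symbol, 932 several and 9160 none, and each of 18193 genes was represented by its brightest probeset. No 2 arrays held the same values.

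Genes were named by rule: up to 12 passing genes in each direction, or, with fewer than 5 passing, the 5 genes with the smallest p, beside the clock list and a short list of followed genes. Members and lists were chosen with earlier results of these data known.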

Additional observations from a re-analysis of the deposited data

Results flagged for a closer look

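In 186 checks of the 2 air groups over the described genes, 12 values, on 8 of the 11 arrays, stood far from the rest of their own group, where chance gives about 1 in 20. Ctrl 8 h replicate 79 was the low array 3 times, for Ciart (7.86, with the nearest at 8.31), Tef (11.84 and 12.04) and Depp1 (6.99 and 7.06). Ctrl 8 h replicate 42 was low for Sgk1 (11.62 and 11.99) and Cat (9.79 and 10.07). Ctrl 8 h replicate 50 was high for Cry1 (9.36 and 9.16), replicate 4 high for Adh1 (5.76 and 5.48), and replicate 8 low for Egr4 (7.38 and 7.66). At 0 h, replicate 48 was high for Hspa8 (13.76 and 13.64) and Manf (11.11 and 10.88), replicate 20 low for Nfil3 (6.95 and 7.29), and replicate 78 high for Homer1 (12.44 and 12.32).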

How the results depend on the processing

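Between Ctrl 8 h and 0 h the count of called probesets was 0 under every setting run except 4, each of which gave 1. With trend and robust settings, with dim probesets left out, and at an adjusted p of 0.05 or less, the call was the unnamed probeset (adjusted p = 0.00679, 0.00761 and 0.0183), and without Ctrl 0 h replicate 20 it was Ifitm1. Against late Ctrl, the 8 h count of 108 was 59 with the inferred sets as a random block, 455 with array weights, 65 with the brightest probeset of each gene and 241 at 0.05. The 0 h count of 49 was 25 with the sets as a fixed block, 24 with array weights and 94 at 0.05. The CIE count of 285 was 166 with the fixed block, 177 with the random block, 167 with the brightest probesets and 782 at 0.05. For the difference of the air and CIE steps, 1 probeset (Manf) was called with trend and robust settings, 2 (Manf and Emcn) with dim probesets left out or brightest probesets, and 7 at 0.05. Leaving out 1 air array at a time gave 0 to 1 calls for 8 h against 0 h, 54 to 114 and 20 to 52 against late Ctrl at 8 h and 0 h, 0 to 2 for the difference of steps and 264 to 316 in CIE. The 2 calls came without Ctrl 0 h replicate 20 (Manf and Depp1), and 1 call (Manf) came without Ctrl 0 h replicate 38 or Ctrl 8 h replicate 79. The causes of these shifts were not tested.

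Members past an unadjusted p of 0.05 numbered 12 in the heat shock list (8 to 13 with 1 array left out, 9 to 13 otherwise), 6 in the clock list (2 to 6 and 4 to 8) and 6 in the immediate early list (4 to 8 and 6 to 9). Of 2015 gene values under 22 settings, 2014 kept their side of the threshold and 1, Ifitm1, passed. These values were all for 8 h against 0 h in air, where no gene was called in the fit reported, so no call could be lost. Calls of single genes against late Ctrl and in CIE were not followed gene by gene under these settings. Of the 92 gene differences, 21 changed sign under 1 setting or more, and each of these was smaller than its SE in the fit reported. Fits on the 11 or 23 Ctrl arrays gave no value for contrasts that need other groups. No paired analysis was possible because the groups share no replicate number in the labels, so arrays were blocked only by the inferred sets. The number of arrays, 5 and 6, limits the precision of each difference to its 95% interval.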
